A study of Mus musculus with 6 samples.

Results

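The transcripts described here belong to 10 genes of cellular zinc handling in mouse immature dendritic cells exposed to hydrogen peroxide (H2O2). They are the metallothionein genes Mt1 and Mt2, the zinc-sensing transcription factor gene Mtf1, the SLC30 exporter genes Slc30a1, Slc30a5 and Slc30a7, and the SLC39 importer genes Slc39a1, Slc39a6, Slc39a7 and Slc39a14. They were found by NCBI Gene number among the 17567 genes of the count files. All 10 were listed, and all 10 passed the filter on low counts, which left 12209 genes tested.

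The H2O2 cells received 100 µM H2O2 for 24 h, and the control cells were labelled as control. The labels give both as marrow cells of male C57BL/6 mice 6 weeks old, grown for 6 days in 10% serum with 20 ng/mL GM-CSF and 10 ng/mL IL-4, and were enriched on beads for CD11c, an integrin of dendritic cells. The labels list 3 H2O2 and 3 control samples without tying any of them to a mouse or a culture of its own. The p-values therefore reflect the spread among these samples alone, and that spread may be technical. The RNA is from bulk cultures, in which fewer cells of a type and less RNA per cell cannot be told apart.

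Metallothioneins are small cysteine-rich proteins that bind zinc and copper and release zinc when their thiols are oxidized. When free zinc rises in the cytosol, the transcription factor MTF1 binds metal response elements and turns on the metallothionein genes and the zinc exporter gene Slc30a1. Proteins of the SLC30 (ZnT) family move zinc out of the cytosol, across the cell membrane or into organelles, and those of the SLC39 (ZIP) family move it in.

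H2O2 replicate 3 repeated H2O2 replicate 1 value for value in all 17567 genes, and the pair was counted as 1 library, which left 2 H2O2 and 3 control libraries of 16232604 to 16672491 estimated counts each. The sets used here follow the titles and were recognised in earlier results of these data: H2O2 replicate 1 and control replicate 1, whose titles have no suffix, form set A, and H2O2 replicate 2 with control replicates 2 and 3, whose titles end in r1 or r2, forms set B. Which of the 2 samples owns the copied values is not known. They were placed in set A as H2O2 replicate 1, while the title of H2O2 replicate 3 would place them in set B. Transcripts of 4 Y-linked genes summed to 95.1 CPM (counts scaled to a common library size) in the copied library and to 102 CPM in control replicate 1. They summed to 0.121 to 0.453 CPM in the set B libraries, although all mice were labelled male. By these transcripts the copied library was like the control library of set A and unlike the set B libraries. The 10 dendritic cell markers examined were all detected, with Itgax, which encodes CD11c, at 1496 and 2177 CPM in H2O2 libraries and between 1473 and 2154 CPM in control libraries. The 8 markers of T, natural killer and B cells summed to at most 3.29 CPM in any library. The change under H2O2 was estimated with edgeR's quasi-likelihood test with a term for the set, over all 12209 genes, and called where the p adjusted after Benjamini and Hochberg did not exceed 0.05.

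The sequences of Mt1 and Mt2 bear on whether their reads can be told apart. Mt2 (chr8:94172618-94173567) and Mt1 (chr8:94178883-94180327) lie on the plus strand of chromosome 8, 5315 bases apart (build GRCm38.p6). Their coding sequences, from the principal GENCODE M21 transcripts on the same build, are printed with the bases that differ between them in capitals.
Mt1: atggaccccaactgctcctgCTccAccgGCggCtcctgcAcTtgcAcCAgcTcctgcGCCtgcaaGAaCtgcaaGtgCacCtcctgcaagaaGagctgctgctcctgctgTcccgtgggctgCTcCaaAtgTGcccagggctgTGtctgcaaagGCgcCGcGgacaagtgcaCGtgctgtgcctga
Mt2: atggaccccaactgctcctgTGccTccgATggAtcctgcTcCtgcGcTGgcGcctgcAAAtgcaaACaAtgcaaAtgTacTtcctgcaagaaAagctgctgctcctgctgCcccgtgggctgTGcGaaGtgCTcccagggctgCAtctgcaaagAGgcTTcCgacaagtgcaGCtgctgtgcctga
The coding sequences differ at 38 of 186 bases (79.6% identical). Each holds 20 cysteine codons (TGC or TGT), and all 20 stand at the same place in both genes. The longest run of bases shared by the whole spliced transcripts was 20 bases, and none of the 519 windows of 31 bases in the Mt1 transcript occurred in the Mt2 transcript. How the authors treated ambiguous reads is not stated in the sources used.

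The promoters of the 3 genes that moved under H2O2 are shown because MTF1 is known to act through metal response elements in the metallothionein promoters. Promoter sequence was found for 8 of the 10 genes in the RefSeq table of build GRCm38.p6. The 250 bases before the annotated start are printed 5′ to 3′, with matches to the metal response element core (TGCACNC or TGCGCNC, either strand) in capitals. They lie on the plus strand at chr8:94178839-94179088 (Mt1), chr8:94172368-94172617 (Mt2) and chr1:191906531-191906780 (Slc30a1).
Mt1: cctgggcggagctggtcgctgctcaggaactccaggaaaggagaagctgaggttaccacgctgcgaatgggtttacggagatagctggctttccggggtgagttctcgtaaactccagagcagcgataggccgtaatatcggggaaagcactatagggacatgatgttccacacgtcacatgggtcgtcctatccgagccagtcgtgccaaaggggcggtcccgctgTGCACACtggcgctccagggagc
Mt2: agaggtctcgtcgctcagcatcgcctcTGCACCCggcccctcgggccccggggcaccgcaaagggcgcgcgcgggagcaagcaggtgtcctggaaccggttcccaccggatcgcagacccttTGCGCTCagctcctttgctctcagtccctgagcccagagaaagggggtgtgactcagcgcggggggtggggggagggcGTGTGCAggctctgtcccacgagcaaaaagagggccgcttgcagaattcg
Slc30a1: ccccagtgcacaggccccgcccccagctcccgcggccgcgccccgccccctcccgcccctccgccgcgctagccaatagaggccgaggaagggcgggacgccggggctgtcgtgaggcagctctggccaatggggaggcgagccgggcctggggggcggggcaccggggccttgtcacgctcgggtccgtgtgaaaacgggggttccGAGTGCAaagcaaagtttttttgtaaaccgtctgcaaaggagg
With the 50 bases after the start included, Mt2 held 4 matches, 1 of them after the start (GTGCGCA). Mt1 held 3, of which TGCACTC and TGCGCTC lie after the start, and Slc30a1 held 2, of which GAGCGCA lies after the start. Slc30a5 held 1 match, and Mtf1, Slc30a7, Slc39a1 and Slc39a7 held 0. Among 32544 promoter windows of the same 300 bases, 25.9% held at least 1 match, 7.17% at least 2, 1.99% at least 3 and 0.522% at least 4. The antioxidant response element core (TGACNNNGC, either strand), bound by the oxidative stress factor NRF2, occurred once each in Mt2, Slc30a1, Slc30a5 and Slc39a1, against 12.4% of all windows. No match of one motif shared bases with another in these genes. The start is that of the promoter table: 206 of the 250 bases printed for Mt1 and 84 of those for Slc30a1 lie inside the longer RefSeq gene span, and 7 and 14 inside the GENCODE transcripts. GENCODE also annotates Mt1 transcripts that start farther downstream, beyond the window shown. The number of Mt1 matches to either motif, and their place around the start, therefore hold for this start only. Bases beyond the window were not searched. A stretch of bases after the start was found in the principal GENCODE transcript of Mt1 but not in that of Mt2. The split of the Mt2 matches around its start therefore rests on the promoter table alone. A match is a description of the letters and not a measured binding site.

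H2O2 cells held more transcript of the metallothionein genes Mt1 and Mt2 and of the exporter gene Slc30a1, each by about 2-fold or more. The other 7 of the 10 genes were not called. With the set term 3 of the 10 genes were called higher, against 3.93% of all tested genes, and 0 were called lower, against 4.61% (8.54% in either direction). At an unadjusted p under 0.05 by edgeR 4 of the 10 were higher, against 13.7% of all tested genes, and 0 were lower, against 14.1%, and DESeq2 and limma-voom with the same term also called 3 higher and 0 lower. All 10 estimates lay above 0, with a median log2 change of 0.18 against 0.0089 over all tested genes, but that of Slc30a7 turned to -0.00042 when DESeq2's size factors replaced the TMM scaling. Slc30a7, Slc39a7 and Slc39a14 were also below 0 with the copied library in set B (log2 -0.24, -0.081 and -0.28). Without the set term edgeR called 0 of the 12209 genes, with 853 at an unadjusted p under 0.05 overall and 1 among the 10.

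**Figure D1:**
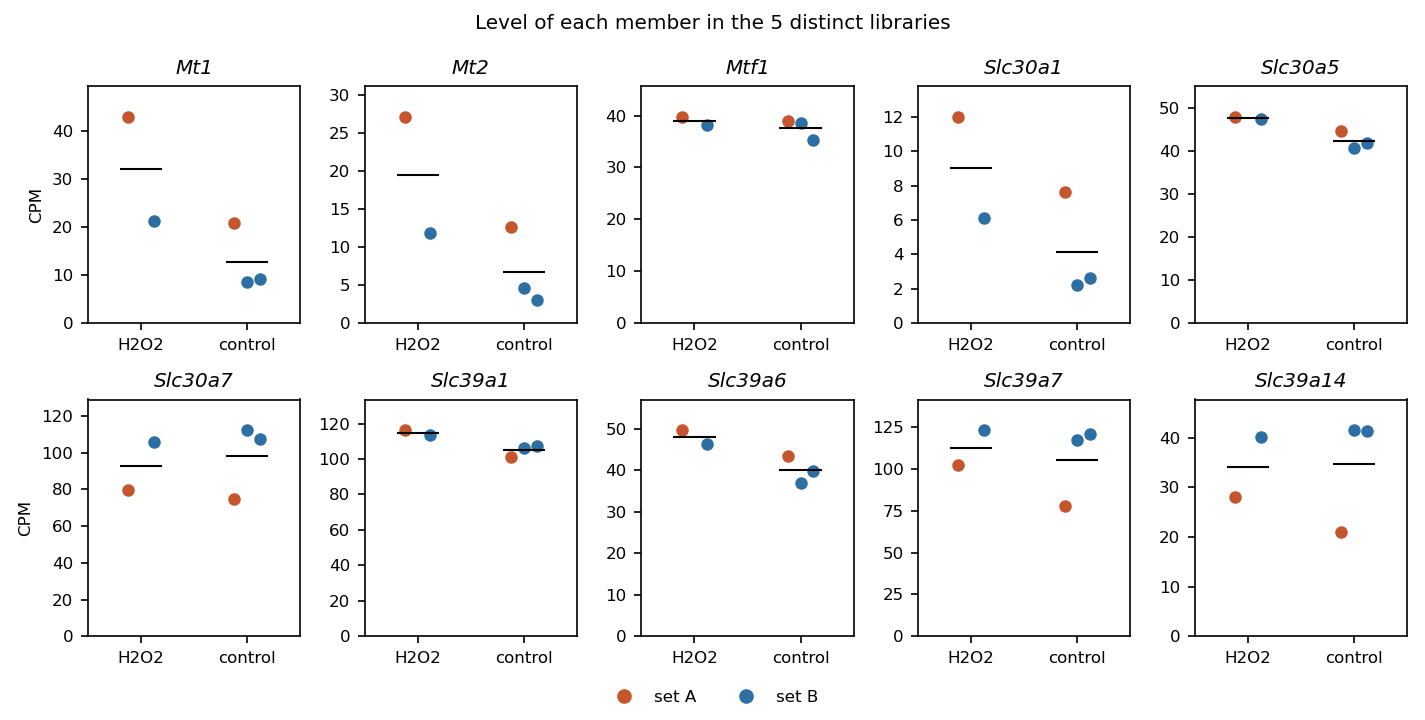
CPM of each of the 10 genes in the 5 distinct libraries (H2O2, n = 2; control, n = 3), 1 panel a gene, with points coloured by set and a bar at the group mean. Mt1, Mt2 and Slc30a1 are higher in set A and, within each set, higher in H2O2 than in control, while Slc30a7, Slc39a7 and Slc39a14 are lower in set A.

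Mt1, which encodes metallothionein-1, stood at 43.0 CPM in H2O2 replicate 1 and 21.2 CPM in H2O2 replicate 2, against 20.8, 8.46 and 9.08 CPM in control replicates 1, 2 and 3. Both H2O2 libraries lay above every control library, but H2O2 replicate 2 of set B was only just above control replicate 1 of set A. The fitted rise was 2.24-fold (log2 1.17 ± 0.11 SE, adjusted p = 0.00851 by edgeR), with a 95% interval of the log2 change from 0.91 to 1.42. Within the sets, the log2 ratio on the scale of CPM plus 0.5 was 1.03 for set A (1 H2O2 and 1 control library) and 1.23 for set B (1 and 2 libraries).

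Mt2, which encodes metallothionein-2, stood at 27.1 CPM in H2O2 replicate 1 and 11.8 CPM in H2O2 replicate 2, against 12.6, 4.59 and 3.05 CPM in control replicates 1, 2 and 3. The groups overlapped across the sets, since H2O2 replicate 2 lay below control replicate 1, and were apart within each set. The rise was 2.58-fold (log2 1.36 ± 0.19 SE, 95% interval 0.91 to 1.82, adjusted p = 0.0184 by edgeR), with log2 ratios of 1.08 for set A and 1.51 for set B. Behind these values stood 458 and 182 estimated counts in H2O2 replicates 1 and 2, against 216, 76 and 50 in control replicates 1, 2 and 3.

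The counts of Mt1 and Mt2 kept a similar ratio in most libraries. It was 1.59 and 1.80 in H2O2 replicates 1 and 2, and 1.66, 1.84 and 2.98 in control replicates 1, 2 and 3. Control replicate 3, with the fewest Mt2 counts, stood apart. Summed into 1 row, so that reads assigned to one in place of the other cannot matter, the metallothionein counts came to 70.1 and 33.0 CPM in H2O2 replicates 1 and 2, against 33.4, 13.1 and 12.1 CPM in control replicates 1, 2 and 3. The sum rose 2.36-fold (log2 1.24 ± 0.10 SE, adjusted p = 0.00534 by edgeR).

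Slc30a1, which encodes ZnT1, the zinc exporter of the cell membrane, stood at 12 CPM in H2O2 replicate 1 and 6.09 CPM in H2O2 replicate 2, against 7.61, 2.24 and 2.62 CPM in control replicates 1, 2 and 3. As with Mt2, the groups overlapped across the sets and were apart within each. The fitted rise was 1.97-fold (log2 0.98 ± 0.20 SE, 95% interval 0.51 to 1.45, adjusted p = 0.0331 by edgeR), and the log2 ratio was 0.62 for set A and 1.17 for set B. These levels rested on 203 and 94 estimated counts in H2O2 replicates 1 and 2, against 131, 37 and 43 in control replicates 1, 2 and 3.

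The 3 calls depended on the set term, on the set given to the copied library and on H2O2 replicate 2, and those of Mt2 and Slc30a1 on the filter. Without the term the estimates stayed at log2 1.33 for Mt1, 1.53 for Mt2 and 1.12 for Slc30a1, with adjusted p of 0.704, 0.706 and 0.744 by edgeR. With the copied library in set B, an alternative chosen after the data were seen, the estimates were log2 1.87, 2.35 and 1.90, with an adjusted p of 0.360 for each by edgeR, and edgeR called 0 of the 12209 genes (1566 at an unadjusted p under 0.05). That placement joins the copied library, with Y-linked transcripts at 95.1 CPM, to libraries with 0.453 CPM or less of them. With no filter on low counts, Mt2 and Slc30a1 kept log2 changes of 1.37 and 0.98, with adjusted p of 0.0513 and 0.0696 by edgeR. Without H2O2 replicate 2, when set A alone carries the comparison, they were 1.04, 1.11 and 0.65, with adjusted p of 0.0994, 0.143 and 0.185 by edgeR. Slc30a1 also lost its call without control replicate 2 (adjusted p = 0.0532 by edgeR) or control replicate 3 (0.0839). Across all 13 settings the adjusted p ran from 6.5e-08 to 0.704 for Mt1, from 5.9e-06 to 0.706 for Mt2 and from 0.00837 to 0.744 for Slc30a1.

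**Figure D2:**
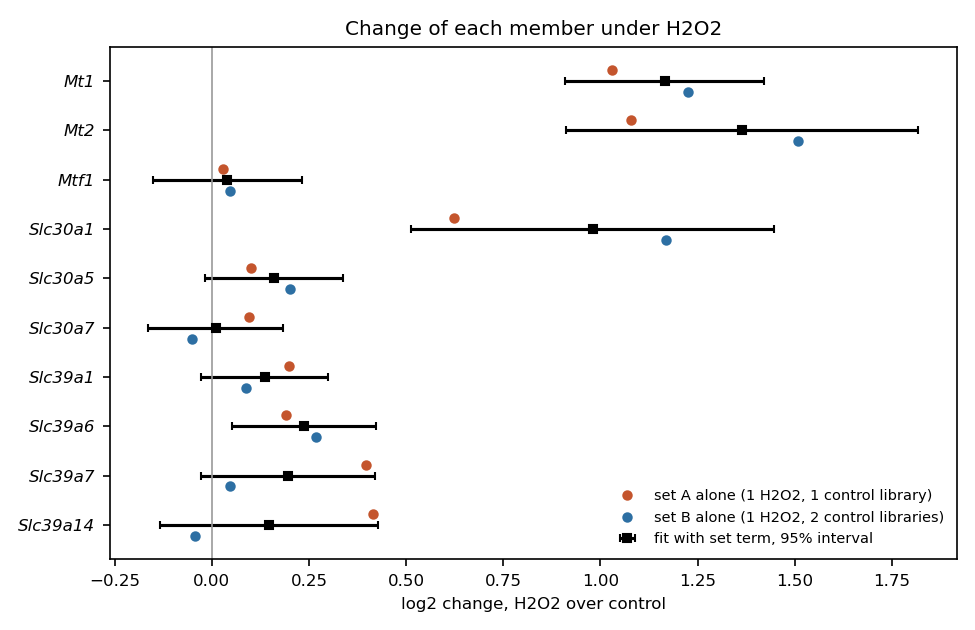
Log2 change of each gene, H2O2 over control. Black squares with bars are the fit with the set term and its 95% interval, and coloured points are the log2 ratios within set A (1 against 1 library) and set B (1 against 2). The intervals of Mt1, Mt2, Slc30a1 and Slc39a6 lie above 0, and only the first 3 were called after adjustment over all genes.

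Mtf1, the gene of the zinc sensor itself, stood at 39.7 and 38.2 CPM in H2O2 replicates 1 and 2, against 38.9, 38.6 and 35.4 CPM in control replicates 1, 2 and 3. The 5 libraries lay close together and the groups overlapped. Its log2 change was 0.04 ± 0.08 SE (95% interval -0.15 to 0.23, adjusted p = 0.789 by edgeR), so a change of the size seen in Mt1 lies outside its interval.

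The exporters of the secretory pathway differed from Slc30a1 in size of change. Slc30a5 encodes ZnT5, which loads zinc into the early secretory pathway, and stood at 47.9 and 47.5 CPM in H2O2 replicates 1 and 2, against 44.7, 40.7 and 41.8 CPM in control replicates 1, 2 and 3. The groups did not overlap, yet the change was small and not called (log2 0.16 ± 0.07 SE, 95% interval -0.02 to 0.34, adjusted p = 0.216 by edgeR). Slc30a7 encodes ZnT7, a zinc transporter of the Golgi, and stood at 79.7 and 106 CPM in H2O2 replicates 1 and 2, against 74.6, 112 and 108 CPM in control replicates 1, 2 and 3. Its levels followed the set rather than the treatment, with a log2 change under H2O2 of 0.01 ± 0.07 SE (95% interval -0.16 to 0.18, adjusted p = 0.944 by edgeR).

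None of the 4 importer genes was called. Slc39a1, which encodes ZIP1 of the cell membrane, stood at 116 and 114 CPM in H2O2 replicates 1 and 2, against 101, 106 and 108 CPM in control replicates 1, 2 and 3. Its groups did not overlap, but the log2 change was 0.14 ± 0.07 SE (95% interval -0.03 to 0.30, adjusted p = 0.2497 by edgeR). Slc39a6, which encodes ZIP6, a zinc importer of the cell membrane, stood at 49.5 and 46.3 CPM in H2O2 replicates 1 and 2, against 43.4, 36.9 and 39.8 CPM in control replicates 1, 2 and 3. Its groups were also apart, and it had an unadjusted p of 0.0193 but an adjusted p of 0.108 by edgeR (log2 0.24 ± 0.08 SE, 95% interval 0.05 to 0.42).

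Slc39a7 encodes ZIP7, which releases zinc from the endoplasmic reticulum and Golgi into the cytosol. It stood at 102 and 123 CPM in H2O2 replicates 1 and 2, against 77.5, 117 and 121 CPM in control replicates 1, 2 and 3. Control replicate 1 was the lowest library, and the change was log2 0.20 ± 0.09 SE (95% interval -0.03 to 0.42, adjusted p = 0.229 by edgeR). Slc39a14 encodes ZIP14, which carries zinc and non-transferrin iron into cells, and stood at 28.1 and 40.2 CPM in H2O2 replicates 1 and 2, against 21.0, 41.5 and 41.4 CPM in control replicates 1, 2 and 3. Both set A libraries lay below the set B libraries, and the change was log2 0.15 ± 0.12 SE (95% interval -0.13 to 0.43, adjusted p = 0.466 by edgeR).

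For these 2 importers the ratio was above 0 in set A but close to 0 in set B. Slc39a7 had a log2 ratio of 0.40 for set A and 0.05 for set B, and Slc39a14 had 0.42 for set A and -0.04 for set B. The test of that difference, the interaction of treatment and set in edgeR, gave an unadjusted p of 0.0121 for Slc39a7 and 0.0158 for Slc39a14 and an adjusted p of 0.214 and 0.234. None of the 10 genes was called for it, by edgeR, DESeq2 or limma-voom, against 0.0164% of all tested genes by edgeR. At an unadjusted p under 0.05 by edgeR there were 2 of the 10 genes and 1674 of all 12209.

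With H2O2 replicate 1 above control replicate 1 and H2O2 replicate 2 above both control replicates 2 and 3 as the measure, 7 of the 10 genes were higher within each set, against 28.5% of all tested genes, and 0 were lower, against 28%. The 3 others were Mtf1, Slc30a7 and Slc39a14. Over all libraries 4 of the 10 genes had both H2O2 libraries above every control library, against 13% of all tested genes, and 0 had them below, against 10.7%. These were Mt1, Slc30a5, Slc39a1 and Slc39a6.

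The 3 called genes also differed between the sets, by log2 differences of similar size. In the same fit, at equal treatment, Mt1 was 2.21-fold higher in set A (log2 1.14 ± 0.11 SE), Mt2 2.76-fold (1.46 ± 0.19) and Slc30a1 2.51-fold (1.33 ± 0.20), with adjusted p of 4.3e-04, 0.00167 and 0.00279 by edgeR. Slc30a7 (log2 -0.50 ± 0.07), Slc39a7 (-0.46 ± 0.10) and Slc39a14 (-0.77 ± 0.12) were lower in set A, with adjusted p of 0.00295, 0.0105 and 0.00349 by edgeR. So 3 of the 10 genes were higher in set A, against 19.1% of all tested genes, and 3 were lower, against 16.9%. Mtf1, Slc30a5, Slc39a1 and Slc39a6 were not called between the sets, with log2 differences of 0.07, 0.07, -0.03 and 0.14.

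**Figure D3:**
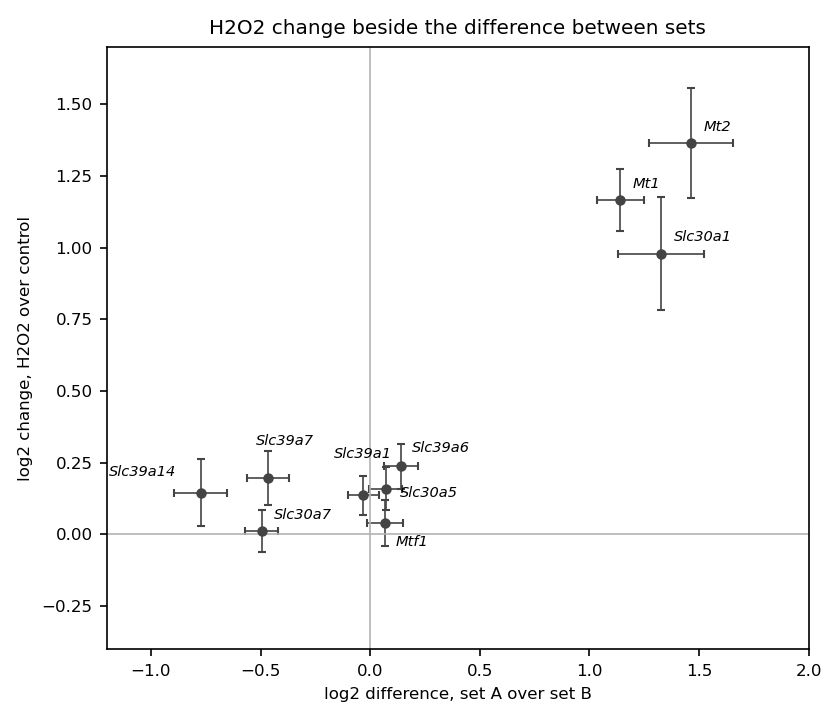
Log2 change under H2O2 (vertical axis) against the log2 difference of set A over set B (horizontal axis) for the 10 genes, both from the fit with the set term, with bars of 1 SE. Mt1, Mt2 and Slc30a1 lie apart at the upper right, from 0.98 upward on the vertical axis, and the other 7 genes lie at 0.24 or less there.

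Per kilobase of the principal GENCODE M21 transcript, the 10 genes covered a wide range of levels. In H2O2 libraries the order began with Mt1 at 58.4 ± 28.1 CPM per kilobase (SD, n = 2), Slc39a1 at 48.6 ± 0.8, Slc39a7 at 48.5 ± 6.3 and Mt2 at 38.0 ± 21.2, neighbours that lay within their spread of each other. Mt2 lay above the gene after it, Slc30a5 at 15.02 ± 0.09, with no overlap of their H2O2 libraries. In control libraries it began with Slc39a7 at 45.3 ± 10.4 (SD, n = 3) and Slc39a1 at 44.4 ± 1.4, followed by Mt1 at 23.3 ± 12.7, Slc30a5 at 13.3 ± 0.6 and Mt2 at 13.2 ± 10.0. In control libraries Slc39a1 and Mt1 did not overlap, while Mt1, Slc30a5 and Mt2 lay within the spread of Mt1 or Mt2. Slc39a6 stood at 12.3 ± 0.6 in H2O2 and 10.3 ± 0.8 in control libraries, and Slc30a7 at 10.3 ± 2.1 in H2O2 and 10.9 ± 2.3 in control libraries, neighbours within their spread. Slc39a14 stood at 6.93 ± 1.72 in H2O2 and 7.03 ± 2.40 in control libraries, and Mtf1 at 5.11 ± 0.14 in H2O2 and 4.93 ± 0.26 in control libraries. Slc30a1 was the lowest of the 10 genes in both groups, at 1.72 ± 0.80 in H2O2 and 0.793 ± 0.572 CPM per kilobase in control libraries.

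**Figure D4:**
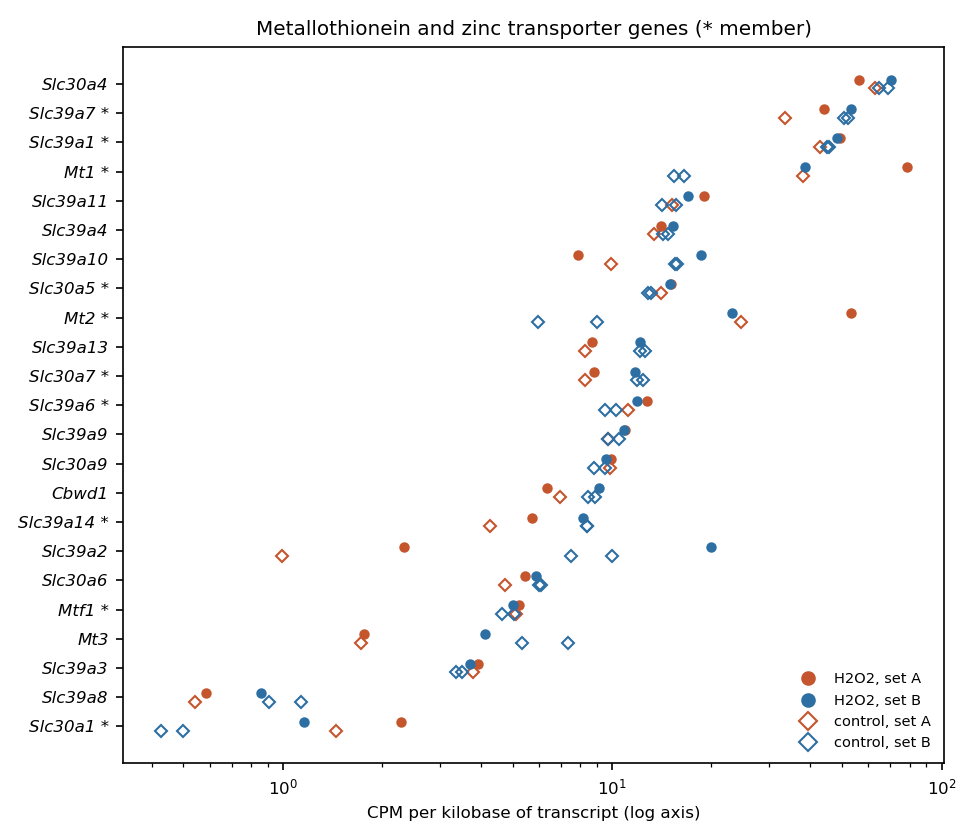
CPM per kilobase of transcript (log axis) in each library for the 10 genes (starred) and 13 further zinc transporter, metallothionein and zinc chaperone genes tested, ordered by the control mean. Filled circles are H2O2 libraries, open diamonds control libraries, and colour marks the set. Slc30a4 and Slc39a7 head the control order and Slc30a1 ends it.

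Of the other zinc transporter, metallothionein and zinc chaperone genes, 19 of 21 had a row and 13 were tested. Only Slc39a2, which encodes the zinc importer ZIP2, was called. It stood at 5.44 and 46.5 CPM in H2O2 replicates 1 and 2, against 2.32, 23.3 and 17.6 CPM in control replicates 1, 2 and 3, a 2.29-fold rise (log2 1.20 ± 0.15 SE, adjusted p = 0.0162 by edgeR). Unlike Mt1 and Mt2, Slc39a2 was lower in set A (log2 -3.11), so its rise lay on the opposite side of the set difference. Its log2 ratios were 1.07 for set A and 1.17 for set B. Of these 13 genes 0 were called lower by edgeR, DESeq2 or limma-voom, and at an unadjusted p under 0.05 by edgeR 2 were higher, against 13.7% of all tested genes, and 0 lower, against 14.1%. Their median log2 change was 0.04. Among them, the metallothionein gene Mt3 stood at 0.946 and 2.20 CPM in H2O2 replicates 1 and 2. In control replicates 1, 2 and 3 it stood at 0.930, 3.93 and 2.87 CPM. It was not called (log2 -0.43 ± 0.29 SE, adjusted p = 0.385 by edgeR) and, like Slc39a2, was lower in set A (log2 -1.59). Slc30a3, Slc30a10 and Tmem163 were at 0 in every library.

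Of 6 further genes reported to depend on MTF1 in mouse, 2 rose and 1 fell, against 3.93% higher and 4.61% lower among all tested genes, with a median log2 change of -0.07. Slc40a1, which encodes the iron exporter ferroportin, stood at 33.8 and 34.6 CPM in H2O2 replicates 1 and 2, against 17.1, 9.97 and 9.08 CPM in control replicates 1, 2 and 3 (log2 1.47 ± 0.19 SE, adjusted p = 0.0173 by edgeR). Gclc, which encodes the catalytic subunit of glutamate-cysteine ligase and is also an NRF2 target, stood at 65.2 and 44.6 CPM in H2O2 replicates 1 and 2, against 41.7, 31.9 and 33.2 CPM in control replicates 1, 2 and 3 (log2 0.54 ± 0.08 SE, adjusted p = 0.0213 by edgeR). Selenoh, which encodes a selenoprotein of the nucleus, was lower, at 5.50 and 3.69 CPM in H2O2 replicates 1 and 2, against 11.7, 6.41 and 9.39 CPM in control replicates 1, 2 and 3 (log2 -1.09 ± 0.20 SE, adjusted p = 0.0284 by edgeR).

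Copper transporters and chaperones were measured because metallothioneins also bind copper. Of 10 such genes, 0 were called by edgeR, DESeq2 or limma-voom, with 2 higher and 1 lower at an unadjusted p under 0.05 by edgeR, where all tested genes had 13.7% higher and 14.1% lower, and a median log2 change of 0.12. All 10 were tested.

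The genes whose pattern over the 5 libraries lay nearest to that of a metallothionein were found by the root mean square distance between centred log2 CPM values, among the 8520 genes averaging 10 CPM or more. For Mt1 the nearest was Nqo1, the quinone reductase gene and a standard NRF2 target, at a distance of 0.0324. Nqo1 stood at 67.5 and 32.1 CPM in H2O2 replicates 1 and 2, against 30.6, 12.7 and 13.7 CPM in control replicates 1, 2 and 3. Tanc2, Gstm1, Cyp1b1 and Ppbp followed at distances of 0.111 to 0.199, against a median of 0.875 for all genes compared. For Mt2 the nearest were Ifi204 and Ifi207, genes of an interferon-inducible family, at 0.189 and 0.259, followed by Oasl2, Tm4sf19 and Sgk1 at up to 0.302, against a median of 1.11. The distances hold both the difference between the sets and the change under H2O2, and they carry no test.

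Markers of other cell types moved between the same groups. Their calls are by edgeR with the set term, which called 3.93% of all tested genes higher and 4.61% lower. Mast cell and basophil markers summed to 11.3 and 26.9 CPM in H2O2 libraries and to between 34.8 and 85.5 CPM in control libraries, with 5 of 8 called lower and 0 higher. Dendritic cell markers summed to 12118 and 11120 CPM in H2O2 libraries and to between 13146 and 13617 CPM in control libraries, with 7 of 10 called lower and 0 higher. Macrophage and monocyte markers summed to 1226 and 1067 CPM in H2O2 libraries and to between 857 and 1012 CPM in control libraries, with 1 of 9 tested called higher and 2 lower. Neutrophil markers summed to 119 and 583 CPM in H2O2 libraries and to between 124 and 612 CPM in control libraries, with 3 of 9 tested lower and 0 higher, and were lower in both set A libraries. Eosinophil markers summed to 134 and 43.9 CPM in H2O2 libraries and to between 45.7 and 202 CPM in control libraries, with 3 of 5 tested lower and 1 higher. With the same term DESeq2 called 4 mast cell and basophil, 6 dendritic cell, 0 macrophage and monocyte, 3 neutrophil and 2 eosinophil markers lower. Higher by DESeq2 was 1 macrophage and monocyte marker, with 0 in the other marker lists. The 6 erythroid markers summed to at most 1.95 CPM in any library, with 0 of 1 tested called by edgeR, DESeq2 or limma-voom and 0 at an unadjusted p under 0.05 by edgeR. The part of these shifts in the changes of Mt1, Mt2 and Slc30a1 was not tested.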

How the data were processed

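Transcripts were sequenced from 6 samples of mouse immature dendritic cells, 3 labelled H2O2 and 3 control. The authors deposited raw estimated counts for each gene, per the file headers; in a library, 8.38% to 9.03% of the numbers carried decimals. HISAT, Bowtie2 and the build GRCm38.p6 are named in the submitters' processing notes, without roles. Which counter, annotation and strand setting were used is not given in the sources used here. NCBI gene numbers were matched to RefSeq symbols of GRCm38.p6 for 17520 of 17567 rows (99.7%).

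The estimated counts were rounded and filtered with edgeR's filterByExpr (minimum count 10, minimum total 15), scaled with TMM factors and fitted with edgeR 4.0.16 in R 4.3.3, with a term for the set and the treatment (2 residual degrees of freedom before moderation). SE is the absolute log2 change over the square root of F, and intervals use the moderated degrees of freedom and cover only the spread of these libraries. The interaction of treatment and set had 1 residual degree of freedom. CPM are scaled to the TMM-adjusted library size. The smallest p an exact permutation of 2 against 3 libraries could give is 0.1, so none was used.

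The 10 genes, the other lists and the set term were chosen with earlier results of these data known. The other named genes are the called members of the zinc, MTF1 and copper lists and the 5 genes nearest in pattern to Mt1 and to Mt2, leaving out symbols that are only clone or model numbers. Alternatives were no set term, a replicate block, DESeq2's size factors, DESeq2 1.42.0, limma-voom (limma 3.58.1), no filter, the copied library placed in set B (added after the data were seen), each library left out in turn, and other CPM values added before the within-set ratios. The fits were tested on simulated data.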

Additional observations from a re-analysis of the deposited data

How the results depend on the processing

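Without the set term, edgeR called 0 genes higher and 0 lower over all genes and 0 of the 10 higher. The summed metallothioneins, Mt1 and Mt2, stood at log2 1.40 (adjusted p = 0.703 by edgeR). Slc30a7 and Slc39a14 turned to log2 -0.080 and -0.019. With the replicate number as a block (1 residual degree of freedom), 220 genes were called higher and 334 lower, 528 of these 554 also called with the set term, and Mt1, Mt2 and Slc30a1 remained called. These blocks follow the sets, except that control replicate 3 stands alone in its block. The fit is therefore no independent check of the set term. The deviations of same-numbered libraries from their group means correlated across 12209 genes with r = 0.81 and 0.71, but nothing in the labels ties the numbers to shared animals. Same-numbered libraries also share a set, so the difference between the sets enters these correlations. They therefore cannot show a pairing by number. With no filter on low counts, 60 genes were called higher and 42 lower among 16398, and of the 10 only Mt1 (1 higher), with Mt2 at an adjusted p of 0.0513 and Slc30a1 at 0.0696 by edgeR. Slc30a7, near 0 throughout, changed sign to log2 -0.00042 with DESeq2's size factors and to -0.00023 with DESeq2. Limma-voom changed no sign or call among the 10.

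With the copied library in set B (chosen after the data were seen), edgeR called 0 genes higher and 0 lower over all genes and 0 of the 10 higher. The summed metallothioneins then stood at log2 2.03 (adjusted p = 0.361 by edgeR), Slc30a7 at -0.24, Slc39a7 at -0.081 and Slc39a14 at -0.28. This placement joins libraries that differ in their Y-linked transcripts.

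Leaving out 1 library in turn gave between 1 and 1248 genes higher and between 0 and 816 lower, between 0 and 3 of the 10 higher, and the summed metallothioneins at log2 1.07 to 1.39. The lowest counts came without H2O2 replicate 2, when the summed metallothioneins had an adjusted p of 0.0966 by edgeR. Without control replicate 1 or H2O2 replicate 1 the fit compares set B libraries only. In those fits Slc30a7 stood at log2 -0.060 and -0.050 and Slc39a14 at -0.053 and -0.043; without control replicate 3, Slc30a7 stood at -0.0033 and Mtf1 at -0.00098. Leaving out 1 library moved Mtf1 between log2 -0.00098 and 0.069, Slc30a7 between -0.060 and 0.094, Slc39a14 between -0.053 and 0.42, Slc39a7 between 0.038 and 0.40, Slc39a1 between 0.081 and 0.197 and Slc30a5 between 0.099 and 0.21. The 3 genes higher and 3 lower in set A held these counts under each of the 7 alternatives run for them, and 0 of the 10 were called for the interaction under 4. Adding 0.1 or 2 CPM in place of 0.5 kept each within-set ratio inside its 95% counting interval; that of Slc30a1 in set B moved most, to log2 1.29 and 0.87, against an interval of 0.74 to 1.60 around 1.17. Depth limits Slc30a1 and Mt2 most, which had as few as 37 and 50 estimated counts in a control library.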
